A study of Triticum aestivum with 2 samples.

Results

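Broad MNase hypersensitive sites (MHSs) are the peaks of 1 kb or more in the MH-seq peak lists of the spikelet and the seedling of common wheat. The members were chosen by the width of the called peak (end minus start of at least 1000 bp), which held for 9912 of the 566565 MHSs in both lists. The spikelet list had 3321 broad MHSs among 277119, and the seedling list had 6591 among 289446. Both lists came from wild-type plants of the cultivar Chinese Spring. The spikelets were taken at the booting stage. The labels describe the seedlings as whole plants of 10 days. The methods for these libraries also name whole seedlings but give a slightly younger age, and the general account of the plant material names the above-ground parts. The authors merged 2 biological replicates per tissue and deposited 1 list per tissue. There is thus no replicate check below, no test was made, and the 95% Wilson intervals in parentheses cover counting error only.

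MH-seq sequences the small DNA fragments that a light digestion of cross-linked nuclei with micrococcal nuclease (MNase) releases. MNase cuts DNA that is not wrapped in nucleosomes, so reads pile up over open DNA, which in plants often holds promoters and other regulatory elements. A peak caller joins neighbouring positions past its threshold into 1 peak, so that a wide peak can hold 1 long open stretch or several short ones that lie close together. Common wheat is a hexaploid whose subgenomes A, B and D come from related ancestors, and its genes are densest towards the chromosome ends. No sequence of the genome build of the lists was used here, so the members are described by position, shape and overlap.

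The width was set by the same peak calling as the summit, the fold enrichment and the significance of each MHS, so these are given as a description. The peak caller was run without a control. Its fold is the pileup of reads at the summit, plus 1, over the local background, plus 1. This background was taken from the surrounding 10 kb for MHSs above its lowest value in each list. The peak caller extended each read to 200 bp, which is also the width of the narrowest MHS. The widths thus measure merged signal and not the open DNA itself. Depth was close in both lists, with 182.3 M reads in the spikelet and 184.8 M in the seedling as recovered from the lowest local background.

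Broad MHSs made up 1.20% (1.16 to 1.24) of the spikelet list and 2.28% (2.22 to 2.33) of the seedling list. The spikelet thus had 0.504 times as many as the seedling. They covered 3.98 Mb in the spikelet and 7.93 Mb in the seedling, or 3.76% and 6.68% of the bases in each list. All 21 chromosomes had fewer broad MHSs in the spikelet than in the seedling. The ratio was lowest on 7A, with 109 in the spikelet against 309 in the seedling, and highest on 2D, with 242 against 364.

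Among the broad MHSs the widths were much alike in both tissues. The median was 1137 bp in the spikelet, with 25% of them under 1056 bp and 25% over 1278 bp. In the seedling the median was 1140 bp, and the same limits were 1060 and 1280 bp. Most members therefore lay close to the limit of 1000 bp, and the numbers fell steadily with width. A width of 1500 bp or more was held by 269 spikelet and 584 seedling MHSs, and a width of 2000 bp or more by 17 and 43. The spikelet number was between 0.395 and 0.504 times the seedling number at these limits.

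MHSs just inside and just outside the limit had close folds and overlaps. The 156 spikelet MHSs of 1000 to 1009 bp had a median fold of 5.45, and the 186 of 990 to 999 bp had 5.35. Of these, 94.9% of the MHSs just inside the limit and 93.5% of those just outside overlapped a seedling MHS. In the seedling, the 313 MHSs just inside had a median fold of 5.53, against 5.47 for the 317 just outside, and 93.0% and 94.0% overlapped a spikelet MHS. The summit was in the middle 50% of the width in 57.8% of these seedling MHSs inside and 62.5% outside, and 27.5% and 24.0% lay in the outermost 10% of the chromosome on either side. In the spikelet these shares were 60.3% inside and 59.7% outside, and 23.7% and 23.1%.

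**Figure D1:**
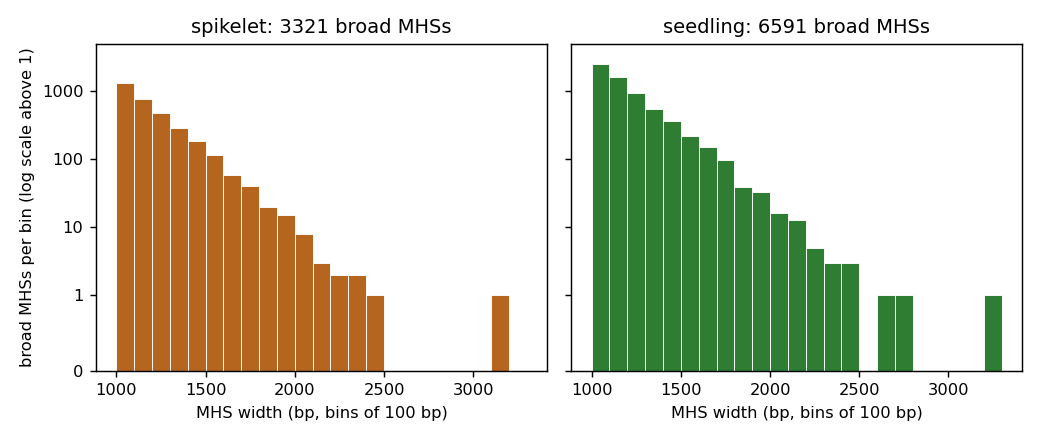
Number of broad MHSs (y axis, log scale above 1) by width in bins of 100 bp (x axis), for the spikelet on the left and the seedling on the right. The numbers fall with width in both tissues, and 1 spikelet MHS of 3126 bp and 1 seedling MHS of 3217 bp stand apart from the rest.

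Broad MHSs had the higher median fold and pileup, but not the largest folds. The median fold of the broad MHSs was 5.27 in the spikelet, against 4.44 for MHSs under 1 kb, and 5.54 in the seedling, against 4.01. A fold over 6.23 was held by 25% of the broad spikelet MHSs, and a fold over 6.72 by 25% of the broad seedling MHSs. Under 1 kb these limits were 5.75 and 5.15. The largest folds, however, belonged to narrow MHSs, a class with many more members. The broad MHSs reached 13.3 in the spikelet and 17.8 in the seedling, while MHSs under 1 kb reached 34.6 and 34.0. A fold of 12 or more was held by 3 broad spikelet MHSs (0.0903%), against 0.366% of those under 1 kb. In the seedling it was held by 8 broad MHSs (0.121%), against 0.222% of those under 1 kb.

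The pileup at the summit had a median of 51 reads in the broad spikelet MHSs and 31 in those under 1 kb. Broad seedling MHSs had a median of 50 reads, and those under 1 kb had 25. The local background times 50 gives the number of reads in the 10 kb around the summit, except where the background was at the lowest value of its list. This held for 4.97% of all spikelet and 8.37% of all seedling MHSs, which were kept in the medians. The broad MHSs had a median of 432 such reads in the spikelet, against 283 under 1 kb. The seedling medians were 399 reads for the broad MHSs and 272 under 1 kb. The broad MHSs thus lay in windows with more reads, to which their own reads add, and a denser window lowers the fold.

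The summit, the position with the most reads, lay in the middle of the peak less often in broad MHSs than in narrower ones. The place of the summit was expressed as its offset into the peak over the width. The middle 50% of the peak (0.25 to 0.75) held the summit of 56.0% (54.3 to 57.7) of the broad spikelet MHSs, against 90.6% of those under 1 kb and 90.2% of the whole list. In the seedling it held 55.7% (54.5 to 56.9), against 84.6% under 1 kb and 84.0% of the whole list. The share was lower in the broad MHSs on all 21 chromosomes in both lists. From 300 bp on it also fell with width among the narrower MHSs. It was 68.9% in the spikelet and 66.5% in the seedling for 700 to under 1000 bp. With reads extended to 200 bp, a narrow MHS has little room for a summit far from its middle. The part of this in the difference was not tested.

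The summits of the broad MHSs fell into a band on either side, with a flat stretch between them. The bands from 0.1 to 0.3 and from 0.7 to 0.9 held 58.0% (56.3 to 59.6) of the broad spikelet MHSs and 55.7% (54.5 to 56.9) of the broad seedling MHSs. MHSs under 1 kb had 16.9% and 23.6% of their summits there. The outermost 10% of the width on either side held 1.05% of the broad summits in the spikelet and 1.79% in the seedling. The bands were mirror images, since the summit lay before the midpoint in 49.9% (48.2 to 51.6) of the broad spikelet MHSs and 50.5% (49.3 to 51.7) of the broad seedling MHSs.

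In base pairs, the summit lay a median of 306 bp from the nearer edge in the broad spikelet MHSs and 317 bp in the broad seedling MHSs, against 143 and 132 bp in MHSs under 1 kb. This distance grew with width. In the spikelet it was 293 bp for widths of 1000 to under 1250 bp and 425 bp for 1500 to under 2000 bp. In the seedling it was 303 and 375 bp. Beyond 1500 bp the middle 50% of the peak held 52.8% of the spikelet summits and 44.9% of the seedling summits.

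**Figure D2:**
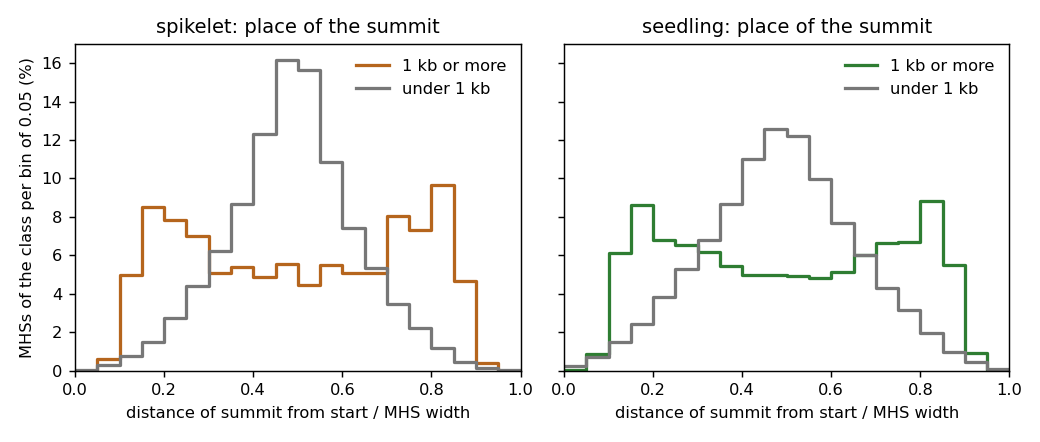
Place of the summit within the MHS (x axis, distance from the start divided by the width) and share of MHSs in each bin of 0.05 (y axis, percent), for the spikelet on the left and the seedling on the right. Coloured lines are MHSs of 1 kb or more and grey lines MHSs under 1 kb. The broad MHSs have a band of summits on either side and the narrower ones a single one in the middle.

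The peak list of the other tissue was made from other libraries, so the overlap with it is not set by the width rule. A wide peak is a larger target for any overlap, however, and the place of the summit in the other list is given for this reason. Of the broad spikelet MHSs, 3159 or 95.1% (94.3 to 95.8) overlapped a seedling MHS by at least 1 bp, against 67.0% of the spikelet MHSs under 1 kb and 67.4% of all spikelet MHSs. Of the broad seedling MHSs, 6319 or 95.9% (95.4 to 96.3) overlapped a spikelet MHS, against 62.3% under 1 kb and 63.0% of the whole list. The broad MHSs had the higher share on all 21 chromosomes in both lists. The share also rose with width below 1 kb, to 93.2% in the spikelet and 89.4% in the seedling for 700 to under 1000 bp.

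The summit itself, which is a single base whatever the width, lay inside an MHS of the other tissue for 86.4% (85.2 to 87.5) of the broad spikelet MHSs, against 63.0% of those under 1 kb and 63.3% of all. In the seedling this held for 83.0% (82.1 to 83.9) of the broad MHSs, against 57.5% of those under 1 kb and 58.1% of all. A gap between broad and narrow MHSs was thus also present with a single base as the target. The classes differed in fold and pileup as well. The width of the MHSs in the other list still counts, and these were wider at broad MHSs. The overlapping MHS with the most shared bases had a median of 975 bp for broad spikelet MHSs, against 410 bp for those under 1 kb. For seedling MHSs these medians were 653 and 373 bp. The parts of this target width, the fold and the pileup in the gap were not tested. On every one of the 21 chromosomes the share with the summit inside was higher in the broad MHSs in both lists. It also rose with width below 1 kb, to 85.6% in the spikelet and 78.5% in the seedling for 700 to under 1000 bp.

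This gap varied with the fold. At a fold of 3 to under 4, the summit of 73.3% (68.6 to 77.5) of 378 broad spikelet MHSs lay in a seedling MHS, against 43.6% of the spikelet MHSs under 1 kb with the same fold. At a fold of 5 to under 6 the shares were 91.5% (89.5 to 93.1) and 78.1%, and at 6 to under 8 they were 92.2% (90.2 to 93.8) and 88.6%. At 8 to under 12 the order was the other way, with 87.4% (81.7 to 91.5) of 175 broad MHSs and 93.7% of the narrow ones. At 12 or more, all 3 broad MHSs and 72.2% of 1002 narrow ones had the summit in a seedling MHS. The difference between the classes was not tested.

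In the seedling, the summit of 60.9% (57.3 to 64.5) of 701 broad MHSs with a fold of 3 to under 4 lay in a spikelet MHS, against 38.3% under 1 kb. At a fold of 5 to under 6 the shares were 85.5% (83.7 to 87.1) and 84.6%, and at 8 to under 12 they were 97.9% (96.4 to 98.8) and 98.5%. In both of these classes the interval of the broad MHSs held the value of the narrow ones, while at a fold of 6 to under 8 the broad share of 92.8% (91.5 to 93.8) was below the 94.3% of the narrow MHSs. The higher share of the broad MHSs was thus found from a fold of 3 up to 8 in the spikelet and from 3 up to 5 in the seedling. Within each class of fold the broad MHSs were still the wider ones.

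**Figure D3:**
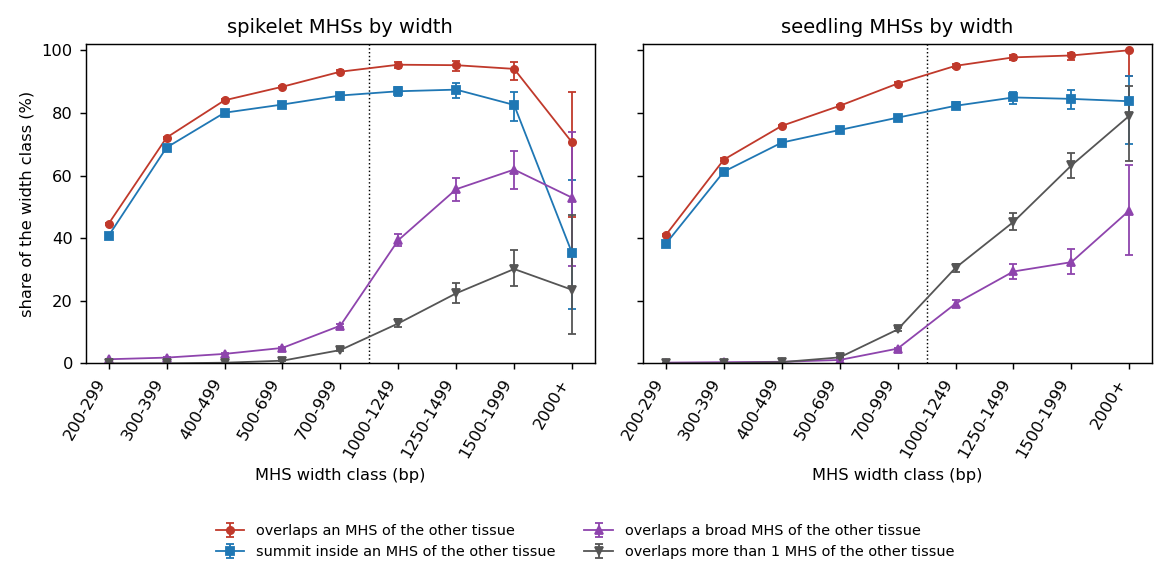
Share of MHSs (y axis, percent, with 95% Wilson intervals) by width class (x axis, bp) that overlap an MHS of the other tissue, have their summit in one, overlap a broad one, or overlap more than 1. Spikelet MHSs are on the left and seedling MHSs on the right, and the dotted line marks 1000 bp. Overlap rises with width up to the broad classes, and the widest spikelet class of 17 MHSs drops to 70.6%.

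Some of the broad MHSs overlapped an MHS that was also broad in the other tissue. These are part of those with any overlap, so their share could not be the higher one. Of the broad spikelet MHSs, 1479 or 44.5% (42.9 to 46.2) overlapped a broad seedling MHS, against 3.20% of all spikelet MHSs. The same number of broad seedling MHSs, which is 22.4% (21.4 to 23.5) of them, overlapped a broad spikelet MHS, against 1.28% of all seedling MHSs. Each of these MHSs overlapped exactly 1 broad MHS of the other tissue, so that they form 1479 pairs. The pairs were close in extent, with medians of 1180 bp in the spikelet, 1191 bp in the seedling and 1079 bp shared. A reciprocal overlap of at least 50% was reached by 1439 pairs. The seedling MHS was the wider one in 755 of the 1479 pairs, or 51.0%. Both members of a pair had to reach the same limit of 1000 bp, near which most broad MHSs lay. This rule itself favours close widths, so these values do not show whether the tissues differ in width.

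Although the pairs had nearly the same extent, their summits often differed. The summits of a pair lay a median of 216 bp apart. They were within 50 bp of each other in 306 pairs (20.7%) and over 300 bp apart in 599 pairs (40.5%). In 871 pairs (58.9%) both summits lay on the same side of the midpoint of their MHS. For MHSs under 1 kb and the MHS of the other tissue with which they shared the most bases, the median distance was 56 bp in the spikelet and 54 bp in the seedling. Distances over 300 bp made up 6.86% and 4.94% of these, which are also limited by the smaller widths.

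The 3 pairs with the most shared bases show this. On part 2 of chromosome 7B, a spikelet MHS from 211608629 to 211610648 and a seedling MHS from 211608657 to 211610709 shared 1992 bp, and their summits lay 1570 bp apart, near opposite edges. On part 2 of 2D, a spikelet MHS from 56961707 to 56964123 and a seedling MHS from 56961784 to 56963695 shared 1912 bp, with the summits 901 bp apart. On part 1 of 4B, a spikelet MHS from 6396518 to 6398441 and a seedling MHS from 6396558 to 6398750 shared 1884 bp, with the summits 933 bp apart. In this order, their pileups were 32, 52 and 47 reads in the spikelet and 40, 58 and 65 reads in the seedling. Coordinates are those of version 1.0 of the IWGSC reference sequence, in which each chromosome is cut into 2 parts, and count from 1.

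The MHS of the other tissue was narrower for most broad MHSs, more so for those of the seedling. The members were chosen as wide in their own list, while the MHSs of the other list were not chosen by width. Narrower ones are thus expected from the rule alone, and the difference between the tissues was not tested. For each broad MHS with an overlap, the MHS of the other tissue sharing the most bases was taken. This counterpart of the broad spikelet MHSs had a median width of 975 bp in the seedling, and a median of 85.1% of the width of the spikelet MHS. The counterpart of the broad seedling MHSs had a median width of 653 bp in the spikelet, and a median of 53.8% of the width of the seedling MHS. It was under 500 bp wide for 11.8% of these spikelet MHSs and 32.9% of these seedling MHSs. Over all broad MHSs, 73.4% of the spikelet bases and 63.5% of the seedling bases lay in MHSs of the other tissue. For MHSs under 1 kb these shares were 60.5% and 53.7%.

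Many broad MHSs overlapped several MHSs of the other tissue. In the spikelet, 537 or 16.2% (15.0 to 17.5) overlapped more than 1 seedling MHS, against 0.544% of all spikelet MHSs. In the seedling, 2404 or 36.5% (35.3 to 37.6) overlapped more than 1 spikelet MHS, against 1.96% of all seedling MHSs. Broad MHSs thus made up 35.6% of all spikelet MHSs and 42.3% of all seedling MHSs with more than 1 counterpart. A wide peak has room for several counterparts, and the share rose with width, to 63.2% (59.1 to 67.2) of the seedling MHSs of 1500 to under 2000 bp. At least 3 counterparts were found for 15 spikelet and 143 seedling broad MHSs.

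In the 522 broad spikelet MHSs with exactly 2 counterparts, the seedling MHSs inside were separated by a median gap of 229.5 bp. In the 2261 such broad seedling MHSs the gap was 245 bp. The summit of the broad MHS lay in the counterpart with the higher pileup in 303 of the 522 (58.0%) and 1380 of the 2261 (61.0%). It lay in the counterpart with the lower pileup in 146 (28.0%) and 589 (26.1%). In most of the others it fell into neither, with 62 in the spikelet and 242 in the seedling. The higher of both counterparts thus held the summit more often than the lower one in each tissue.

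Among the widest members, some had no or only a short counterpart and others had several. The widest spikelet MHS was found at 272563763 to 272566888 on part 1 of 2D and had 3126 bp, a fold of 3.46 and 75 reads at its summit. No seedling MHS lay within 319 kb of it, and its local background was 3.69-fold the spikelet list median. The next, of 2417 bp on 2D, is the pair member given above. The third, from 139207944 to 139210276 on part 2 of 3A, had 157 reads at its summit and 2333 bp, of which 334 bp lay in a seedling MHS. That seedling MHS had a fold of 15.1 and a summit 56 bp away, and the background of the spikelet MHS was 6.93 times the list median.

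The widest seedling MHS, from 26089370 to 26092586 on part 1 of 1B, had 3217 bp and a fold of 3.27, and its local background was 3.05 times the median of the seedling list. It overlapped 3 spikelet MHSs of 304, 518 and 1252 bp. The second, from 331962995 to 331965698 on part 1 of 6D, had 2704 bp and overlapped 3 spikelet MHSs of 493, 405 and 974 bp. Its summit was 264 bp from its start and lay 187 bp from the summit of the first of these. The third, from 203669441 to 203672060 on part 2 of 5B, had 2620 bp and overlapped spikelet MHSs of 1444 and 251 bp. All 3 thus appeared in the spikelet list as 2 or 3 separate, shorter MHSs.

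The broad MHS with the most counterparts in the seedling list lay from 102326645 to 102328188 on part 2 of 5B. Its 1544 bp overlapped 4 spikelet MHSs of 200, 249, 261 and 594 bp, whose pileups were between 27 and 38 reads, against 95 reads in the seedling MHS. In the spikelet list 15 broad MHSs tied with 3 counterparts. The first of them in chromosome order, from 395462387 to 395463907 on part 1 of 1A, overlapped seedling MHSs of 454, 384 and 212 bp.

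**Figure D4:**
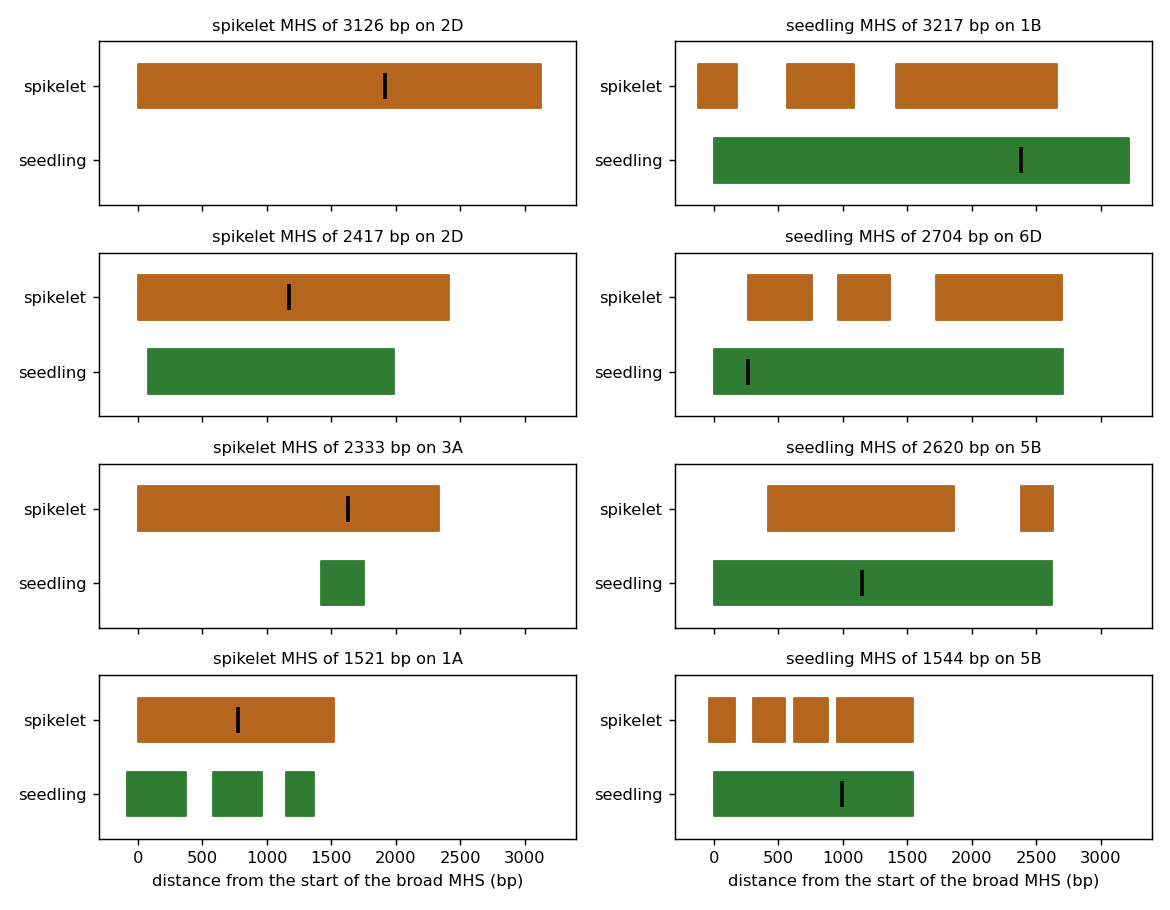
Extent of the 3 widest broad MHSs and of the broad MHS with the most counterparts in each list, with the MHSs of the other tissue that overlap them (x axis, distance from the start of the broad MHS in bp). Spikelet MHSs are drawn above seedling MHSs, members of the spikelet list are in the left column and members of the seedling list in the right, and black ticks mark the summit of the broad MHS. The 3 widest seedling MHSs hold 2 or 3 spikelet MHSs each, and the widest spikelet MHS holds no seedling MHS.

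The broad MHSs with the largest fold had a counterpart with its summit at almost the same place. In the spikelet, the largest fold of 13.3 was found from 363019048 to 363020058 on part 1 of 2D, with 98 reads, and the seedling list had an MHS of 339 bp inside it with a fold of 12.8 and a summit 12 bp away. It was followed by a fold of 12.4 from 39244037 to 39245378 on part 2 of 1D, with 221 reads, where the seedling MHS had 377 bp and a fold of 24.4. The third, of 12.4 from 421191078 to 421192256 on part 1 of 5D, overlapped a seedling MHS of 992 bp with a fold of 8.84. The summits of these pairs lay 16 and 19 bp apart.

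In the seedling, the largest fold of a broad MHS was 17.8, from 298641410 to 298642430 on part 2 of 2A, with 70 reads. It overlapped spikelet MHSs of 451 and 415 bp, and its summit was 19 bp from that of the second, which had a fold of 14.0. The next, of 15.4 from 366295222 to 366296446 on part 1 of 1B, had its summit 2 bp from that of a spikelet MHS of 826 bp. The third, of 15.0 from 243222487 to 243223494 on part 1 of 4A, overlapped a spikelet MHS of 527 bp with a fold of 12.5 and a summit 63 bp away. In all 6 cases a summit of the other tissue was thus within 63 bp.

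Broad MHSs without any overlap were few, with 162 in the spikelet (4.88%, 4.20 to 5.66) and 272 in the seedling (4.13%, 3.67 to 4.63), against 32.6% of all spikelet MHSs and 37.0% of all seedling MHSs. They were of higher pileup than the common ones in the spikelet and of lower pileup in the seedling. The unique broad spikelet MHSs had a median pileup of 58 reads, against 50 in the common broad ones, while the unique broad seedling MHSs had 30 reads, against 51. A local background over 2 times the median of the list was found for 70 (43.2%) of the unique broad spikelet MHSs, against 17.0% of the common ones. In the seedling it was found for 34 (12.5%), against 22.0%. The part of the background in these differences was not tested.

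Of the unique broad MHSs, 139 of the 162 in the spikelet (85.8%) and 236 of the 272 in the seedling (86.8%) lay over 500 bp from an MHS of the other tissue. The unique MHSs under 1 kb had nearly the same shares, with 85.2% in the spikelet and 87.5% in the seedling. The median distance of the unique broad MHSs was 6.19 kb in the spikelet, against 3.03 kb under 1 kb, and 5.46 kb in the seedling, against 6.07 kb. Of the unique broad spikelet MHSs, 74 lay in subgenome D, 35 in B and 53 in A, and of the common ones 1090, 1133 and 936. The unique seedling ones were spread evenly, with 88 in D, 98 in B and 86 in A.

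After the MHS on 2D given above, the widest spikelet MHSs without overlap had 2255 bp, from 180363559 to 180365813 on part 1 of 1D, and 2213 bp, from 270703804 to 270706016 on part 1 of 4D. They lay 12.5 and 12.8 kb from a seedling MHS. The widest in the seedling had 1941 bp, from 226711014 to 226712954 on part 1 of 1B, and lay 351 kb from a spikelet MHS. It was followed by 1840 bp, from 1216439 to 1218278 on part 1 of 2B, and 1832 bp, from 155647490 to 155649321 on part 2 of 6A, which lay 5.64 and 3.96 kb from a spikelet MHS. All 43 seedling MHSs of 2000 bp or more overlapped a spikelet MHS, while 12 of the 17 in the spikelet overlapped a seedling MHS.

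Along the chromosomes, the broad MHSs were less concentrated at the ends than the narrower ones. Chromosome lengths were taken from the last MHS on each part. The distal 10% on both sides together held the midpoint of 22.7% (21.3 to 24.1) of the broad spikelet MHSs, against 33.7% of those under 1 kb and 33.5% of all. In the seedling they held 26.3% (25.2 to 27.4), against 33.8% and 33.6%. Even placement would give 20%. The share was lower in the broad MHSs on 19 of 21 chromosomes in the spikelet, with 4A and 4B as the exceptions, and on all 21 in the seedling. It also fell with width within the narrower MHSs, to 26.4% in the spikelet and 29.2% in the seedling for 700 to under 1000 bp.

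Counted against all MHSs at the same place, broad MHSs were rarest at the tips. In the distal 5% on both sides, 6.39 (5.73 to 7.11) of 1000 spikelet MHSs and 15.8 (14.8 to 16.9) of 1000 seedling MHSs were broad. Between 20% and 30% of the length from either end these numbers were 15.6 (14.6 to 16.8) and 27.3 (25.9 to 28.7). The tips thus held many MHSs but few broad ones for their number.

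A second low lay inside the chromosomes. Between 35% and 40% of the length, 6.85 (5.04 to 9.31) of 1000 MHSs were broad in the spikelet and 19.7 (16.7 to 23.2) in the seedling, and the value rose to 17.4 (15.0 to 20.1) and 29.3 (26.3 to 32.7) between 55% and 60%. The low was deeper in the spikelet relative to the whole list, which had 12.0 in 1000, against 22.8 in the seedling. The seedling interval between 35% and 40% held this value of 22.8. The lowest inner seedling value was 19.0 (16.2 to 22.2), between 40% and 45%. In both lists the broad MHSs lay more towards the far end as the sequence is numbered. From 50% of the length onwards lay 65.6% (63.9 to 67.1) of the broad spikelet MHSs, against 58.1% of those under 1 kb, and 61.3% (60.1 to 62.4) of the broad seedling MHSs, against 57.2%.

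**Figure D5:**
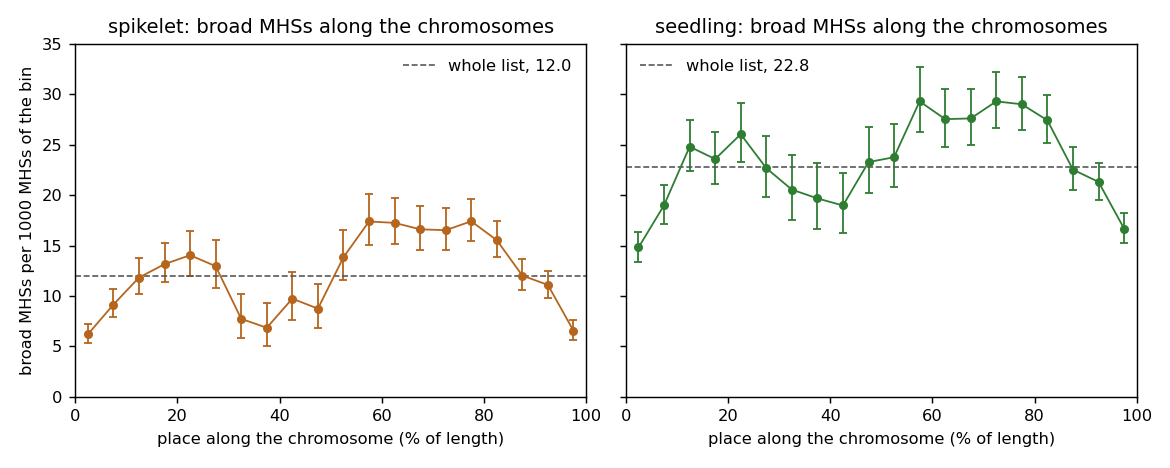
Broad MHSs per 1000 MHSs (y axis, with 95% Wilson intervals) in 20 bins along the chromosomes (x axis, percent of the length, all 21 chromosomes together), for the spikelet on the left and the seedling on the right. The dashed line is the value of the whole list. Both tissues have lows at the tips and the highest values between 55% and 85%. In the spikelet the values from 30% to 50% of the length lie below the line. In the seedling those from 30% to 45% do, but of these only the interval at 40% to 45% leaves out the line.

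Per 1000 MHSs, broad MHSs were more frequent in subgenome D than in A in the spikelet. In that tissue, 13.2 (12.4 to 13.9) of 1000 MHSs were broad in subgenome D, 12.1 (11.5 to 12.8) in B and 10.7 (10.1 to 11.4) in A. The ratio of D to A was 1.23 (1.13 to 1.34). The value was higher in D than in A in all 7 homoeologous groups, the sets of corresponding chromosomes of the subgenomes. The seedling values were 22.9 (21.9 to 23.8) in D, 22.2 (21.4 to 23.2) in B and 23.2 (22.3 to 24.2) in A. The ratio of D to A was 0.983 (0.927 to 1.04), and D was higher than A in 2 of 7 groups. The seedling ratio depended on the setting, and was 1.14 (1.07 to 1.21) per Mb of chromosome and 1.27 (1.03 to 1.56) for MHSs of 1500 bp or more. The spikelet ratio was then 1.47 and 1.44 (1.07 to 1.95). Whether the tissues differ in this ratio was not tested.

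Among the chromosomes, the number of broad MHSs was highest on 2D in the spikelet, with 242, and on 2A in the seedling, with 408. It was lowest on 6A and 7A in the spikelet, with 109 each, and on 4D in the seedling, with 254. Per 1000 MHSs, the spikelet values ranged from 7.44 (6.17 to 8.96) on 7A to 16.2 (14.3 to 18.4) on 2D, and the seedling values from 19.2 (17.1 to 21.5) on 7D to 26.0 (23.7 to 28.7) on 2A. The chromosomes of group 7 together had the lowest value in both tissues, with 9.17 (8.32 to 10.1) in the spikelet and 20.2 (19.0 to 21.6) in the seedling. Group 2 had the highest, with 14.1 (13.1 to 15.2) and 24.5 (23.2 to 25.9).

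The pairs that were broad in both tissues were also unevenly spread. Subgenome B had 575 of the 1479, D had 492 and A had 412. As a share of the broad MHSs of each subgenome, these were 49.2% of the spikelet members in B, 42.3% in D and 41.7% in A. For the seedling members the shares were 25.4% in B, 23.8% in D and 18.2% in A. Subgenome B thus had the highest share in both lists, and A and D were close to each other in the spikelet.

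The median gap to the nearest MHS of the same list was larger for broad MHSs than for narrower ones, but the number of MHSs nearby was not lower. The median gap was 4.24 kb for the broad MHSs and 2.82 kb for those under 1 kb in the spikelet, and 5.79 and 3.85 kb in the seedling. Within 1 kb of its edges, 25.4% (23.9 to 26.9) of the broad spikelet MHSs had another MHS, against 29.1% of those under 1 kb. In the seedling this held for 17.3% (16.4 to 18.3), against 26.2%. A broad peak takes in ground where near neighbours could otherwise be called, and the part of the width in these differences was not tested. Within 50 kb, the broad MHSs had a mean of 4.94 other MHSs in the spikelet, against 4.66 under 1 kb, and 4.35 in the seedling, against 4.27, with a median of 4 throughout. The unique broad spikelet MHSs had a median gap of 2.15 kb, and 41.4% of them had another MHS within 1 kb. Leaving out the distal 10% on both sides, the gaps were 4.31 and 2.69 kb in the spikelet and 5.97 and 3.81 kb in the seedling.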

How the data were processed

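MH-seq was performed on spikelets and seedlings, with 2 biological replicates per tissue merged by the authors. Before deposit, the authors trimmed reads (fastp), aligned them to the IWGSC wheat genome, version 1.0, using bowtie2, discarded duplicated reads (Sambamba) and reads of low mapping quality, and ran MACS2 2.0 without a control. The fold deposited by the authors is a ratio of pileup and local background at the summit, each plus 1. The −log10 p and q values and the score were also deposited by the authors, and belong to the summit as well. The methods name a q limit of 0.01, but 1169 spikelet and 6157 seedling MHSs exceed it, nearly all under 1 kb, and were kept.

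Broad peaks were selected by width, and overlap needed at least 1 bp. Pileup and local background were solved from fold and p. Multiplied by 50, the background gave whole reads (within 0.01) for 100% of the peaks checked. These were the peaks with under 300 reads in the window of 10 kb and a background above the lowest of their list. The broad MHSs had medians of 432 reads in the spikelet and 399 in the seedling, so most of them were not checked. The depth rests on the genome size of 14 Gb given to the peak caller. Chromosome lengths came from the last peak on each part. Intervals are Wilson, and those of ratios come from the standard error of the log ratio. The alternatives were another width, q limit, overlap, summit range, end range and a rate per Mb. Overlap and background calculations were tested on 3000 simulated peaks each, with 100% correct. The members and the rules for named regions were chosen with earlier results of these data known. Named were, per list, the 3 widest, the 3 of largest fold, the 3 widest without overlap and the one with the most counterparts, and the 3 pairs with the most shared bases. Gene annotation and sequence were not used here. Calculations ran in Python 3.11.15 with pandas 2.3.3, scipy 1.17.1 and numpy 2.4.6, and plots were drawn in matplotlib 3.10.9.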

Additional observations from a re-analysis of the deposited data

How the results depend on the processing

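The other settings gave 74 values. Of these, 39 lay in the 95% interval of the main value or, for numbers of MHSs, differed from it by less than 1.5-fold, 35 did not. None of these values turned round a difference between broad and narrower MHSs, and the spikelet ratio of D to A stayed above 1. The seedling ratio of D to A, whose interval held 1, lay on either side of 1 depending on the setting. With 1 list per tissue, replicates could not be left out. No paired analysis was possible because the replicates had been merged into 1 list for each tissue.

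A width of 800 bp or more gave 9236 spikelet and 16602 seedling MHSs. Of these, 52.2% and 29.0% overlapped a broad MHS of the other tissue, 61.4% and 60.5% had the summit in the middle 50%, and in the seedling 92.9% overlapped a spikelet MHS and 27.6% lay at the ends. Among MHSs under 800 bp, 91.2% and 85.4% had the summit in the middle 50%. In the seedling 61.2% of these overlapped a spikelet MHS and 34.0% lay at the ends. A width of 1500 bp or more gave 269 and 584 MHSs, of which 92.6% and 98.5% overlapped any MHS of the other tissue, 26.0% and 12.0% a broad one, and 52.8% and 44.9% had a middle summit. Of these seedling MHSs 28.9% lay at the ends, against 33.7% of those under 1500 bp. Among MHSs under 1500 bp, 67.4% and 62.9% overlapped any MHS of the other tissue, and 90.2% and 84.1% had a middle summit. For a width of 1500 bp or more, the ratio of D to A was 1.44 in the spikelet and 1.27 (1.03 to 1.56) in the seedling. Per Mb it was 1.47 and 1.14.

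The share with any overlap (95.1% in the spikelet, 95.9% in the seedling) was 91.2% and 92.2% when both lists were limited to q values up to 1e-05. Under 1 kb it was then 63.4% and 72.8%, against 67.0% and 62.3% in the full lists. When MHSs of the other tissue had to cover 50% of the MHS, 84.1% and 70.3% of the broad ones passed. Under 1 kb, 62.7% and 56.1% did. The summit alone gave 86.4% and 83.0%, against 63.0% and 57.5% under 1 kb. From 0.4 to 0.6 of the width lay 20.4% and 19.7% of the broad summits, against 55.0% and 45.7% of those under 1 kb. The distal 5% on both sides held 9.91% and 13.1% of the broad MHSs, against 18.7% and 19.0% of those under 1 kb, and the distal 20% held 48.1% and 50.5%, against 56.7% and 56.2%.

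The deposited lists hold 1169 spikelet and 6157 seedling MHSs with a q above the 0.01 that the methods name. Settings chosen after seeing the data were a q of 0.01 or lower, which left 3321 and 6590 broad MHSs, and leaving out MHSs of the list counted with a local background over 2 times its median, which left 2715 and 5166. Without these, 96.6% of the broad spikelet MHSs overlapped a seedling MHS, against 67.3% of the spikelet MHSs under 1 kb. Of the broad seedling MHSs, 20.2% then overlapped a broad spikelet MHS.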

Other observations

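Broad MHSs seldom lay side by side. The nearest broad MHS of the same list was a median of 877 kb away in the spikelet and 494 kb in the seedling. Another broad MHS lay within 10 kb of 126 (3.79%) of the broad spikelet MHSs and 309 (4.69%) of the broad seedling MHSs. No series of broad MHSs with gaps of 10 kb or less held more than 3 members, and 6 such series of 3 were found in the spikelet and 3 in the seedling.

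Among the unique broad MHSs, 1 place held 3 of them with gaps under 200 kb, in the spikelet list from 77233455 to 77248918 on part 1 of chromosome 7D. This place was chosen after its values were seen. It spanned 15.5 kb and held 5 spikelet MHSs, of which 4 overlapped no seedling MHS. The 3 broad ones had a median fold of 7.39, a greatest width of 2000 bp and a local background 2.16 times the median of the spikelet list. No such place was found in the seedling list.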
